A study of Homo sapiens with 6 samples.

Results

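The clustered histone genes are the 32 genes whose symbols in the deposited gene-named table started with HIST1H, HIST2H, HIST3H or HIST4H, of 17766 genes in that table. They filled 39 rows, and where a symbol had several rows the one with the highest mean over all 6 arrays stood for the gene. Of the members 25 belonged to HIST1, 4 to HIST2 and 3 to HIST3, and none carried a HIST4 symbol. By the histone they encode there were 6 H1 genes, 8 H2A genes, 14 H2B genes, 2 H3 genes and 2 H4 genes. The study set the human melanoma line WM266-4, taken from a skin metastasis, against WM115, taken from a primary skin tumour, and its title names SNX18, Cdc42 and RhoA in the migration of melanoma cells. Each line gave 3 biological repeats, and all cultures grew in DMEM with foetal bovine serum, with no treatment named. Each stage of disease was represented by 1 line, so stage and line cannot be told apart. RNA of repeat 1 came from the miRNeasy micro kit and went onto Human Gene 1.0 ST arrays, while RNA of repeats 2 and 3 came from the GeneAll Hybrid-R miRNA kit and went onto Human Gene 2.1 ST arrays, so kit, array version and repeat changed together.

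Values are RMA log2 signals, in which a difference of 1 is a doubling of signal, and every difference is WM266-4 minus WM115. Array medians over the tested genes lay between 6.12 and 6.18. For every histone member the mean signal of the 1.0 pair lay within 0.0235 log2 of the mean signal of the 2.1 arrays, so levels had been aligned between versions before deposit. Whether that step altered the size of the differences within a version was not tested, and a line's own level is not comparable between repeat 1 and repeats 2 and 3. An SD over the 3 repeats of a line carries that alignment too. Levels of different genes come from different probes and are not compared. The melanocyte lineage genes SOX10 and S100B averaged 8.09 and 9.72 in WM266-4 and 7.90 and 9.58 in WM115, and neither was called different. The other 5 of 7 melanocyte markers rose, among them TYR, at 10.08 in WM266-4 and 3.17 in WM115. Markers of fibroblasts, keratinocytes, leukocytes and endothelium had list means of 3.69 to 4.00 over the WM266-4 arrays and 4.05 to 4.32 over the WM115 arrays. In this list of 12 genes 5 were tested and 3 fell, CD68, DSP and PDGFRB, with CD68 at 8.05 in WM266-4 and 9.81 in WM115. A line-by-version term in limma was called for these 3 and for 4 of the 7 melanocyte markers, S100B among them (5.48% of all tested genes). By pairs of repeats 1, 2 and 3 CD68 differed by -0.37, -2.44 and -2.47, and S100B by -1.17, 0.93 and 0.68. PTPRC stood at 2.32 in WM266-4 and 2.30 in WM115, and KRT14 at 3.74 in WM266-4 and 3.76 in WM115. The part of these markers in the histone results was not tested.

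Histones are the proteins around which DNA is wound: H2A, H2B, H3 and H4 form the core of the nucleosome, and H1, the linker histone, binds where DNA enters and leaves it. The clustered genes supply histones while DNA is copied. Most have no introns, are transcribed in S phase at histone locus bodies organised by NPAT, and give mRNAs that end in a stem-loop bound by SLBP in place of a poly(A) tail. Some, among them HIST1H2BD, HIST2H2BE, HIST1H2AC, HIST1H2BK and HIST1H1C, are known to give polyadenylated transcripts as well.

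Of the 32 members 24 lay above the filter on dim genes and were tested, which left out HIST1H2BJ, HIST1H1T, HIST1H4G, HIST1H2BA, HIST1H2AA, HIST1H2AJ, HIST3H3 and HIST3H2A. By limma with Benjamini-Hochberg adjustment over 12436 genes, 8 of the 24 rose in WM266-4, 1 fell and 15 were not called, while 26.9% of all tested genes were called in either direction. The risers made up 33.3% of the tested members, where 13.6% of all tested genes were called higher. The single gene that fell made up 4.17%, where 13.3% of all tested genes were called lower. The median difference over all 32 members was 0.15, against 0.00 over all genes, with 20 members above 0 and 12 below. Arrays of the lines did not overlap, with WM266-4 higher, for 11 members, which is 34.4% beside 21.4% of all genes. They did not overlap, with WM266-4 lower, for 6 members, which is 18.8% beside 22.8% of all genes. The median residual SD between repeats was 0.226 for the members, against 0.139 over all genes. In RNA from whole cultures, more cells making a histone mRNA and more mRNA per cell cannot be told apart. Nothing in the labels says how far apart the repeats were grown, and the p-values measure only the spread between these arrays. That spread holds any change of the line difference with array version and RNA kit, besides the spread between cultures.

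**Figure D1:**
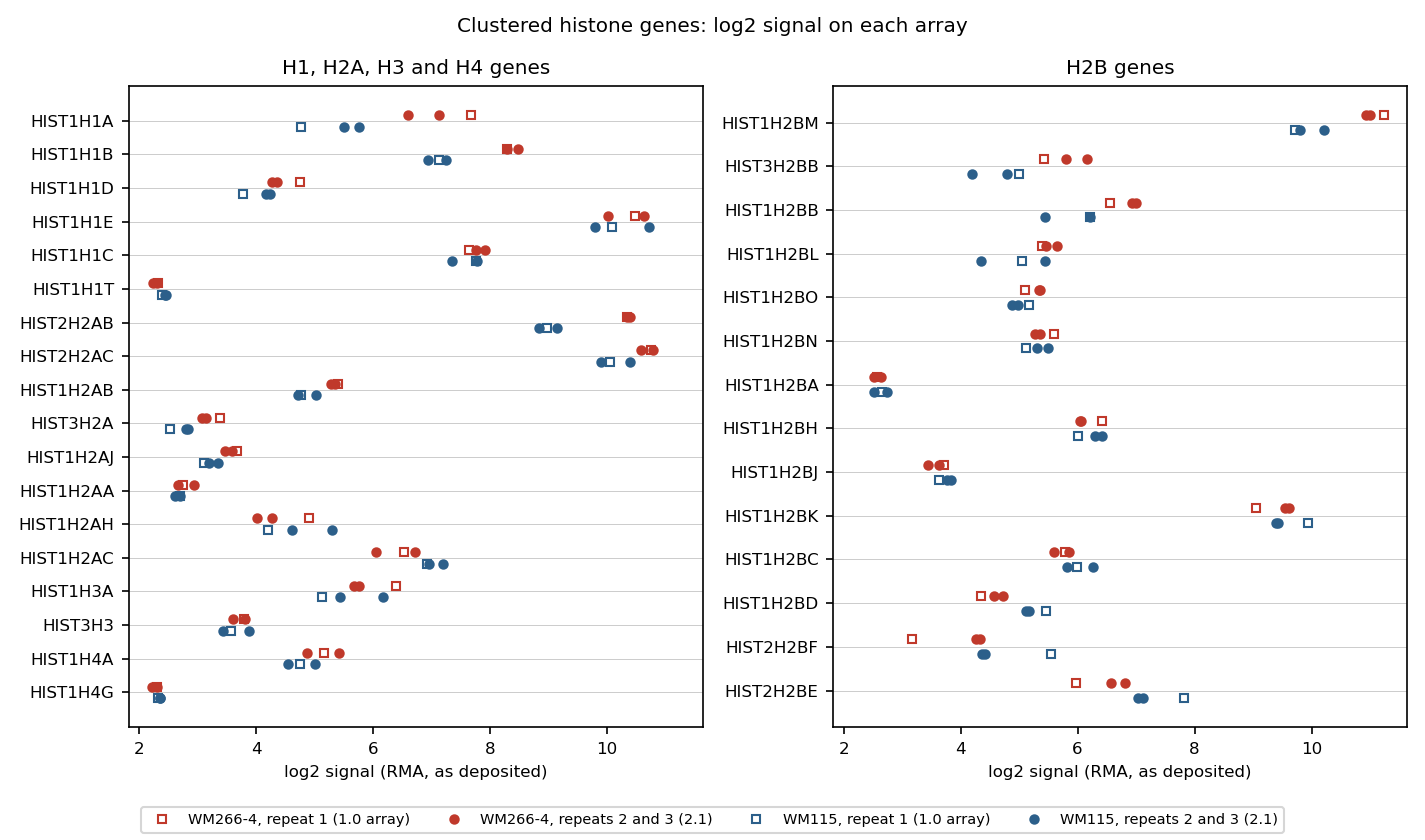
Log2 signal (x axis) of every clustered histone gene on each of the 6 arrays, with WM266-4 in red above WM115 in blue, open squares for repeat 1 on the 1.0 arrays and filled circles for repeats 2 and 3 on the 2.1 arrays. The lines stand apart on every array for HIST2H2AB, HIST1H1B and HIST1H2BM, and overlap for most H3, H4 and H2B members.

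Among the linker histone genes HIST1H1A and HIST1H1B rose in WM266-4, and the other 3 that were tested, HIST1H1C, HIST1H1D and HIST1H1E, were not called. The risers were 40.0% of only 5 tested, beside 13.6% of all tested genes. HIST1H1A had log2 signals of 7.68, 6.60 and 7.13 in WM266-4, against 4.76, 5.50 and 5.75 in WM115. Every WM266-4 array lay above every WM115 array, although the difference in repeat 1, 2.92, was far from 1.10 and 1.38 in repeats 2 and 3. The fitted difference of HIST1H1A was 1.80 ± 0.35 (SE, n = 3 each), a 3.48-fold higher signal, with a limma adjusted p of 0.0147. It missed the threshold when WM266-4 repeat 3 was left out (adjusted p 0.0567) or WM115 repeat 2 (adjusted p 0.0525).

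HIST1H1B repeated more closely. Its signals were 8.29, 8.28 and 8.48 in WM266-4, against 7.13, 6.93 and 7.25 in WM115. The pairs gave 1.16, 1.35 and 1.23, and the fitted difference was 1.25 ± 0.13 (SE, n = 3 each), 2.38-fold, with a limma adjusted p of 0.00208. HIST1H1E had 10.47, 10.01 and 10.63 in WM266-4, against 10.09, 9.79 and 10.71 in WM115, so its lines overlapped. Its difference of 0.17 (95% interval -0.50 to 0.84) was not called. HIST1H1C differed by 0.14 (95% interval -0.24 to 0.51) and HIST1H1D by 0.40 (95% interval -0.05 to 0.85). On the 2.1 arrays alone HIST1H1D differed by 0.11, HIST1H1C by 0.27 and HIST1H1E by 0.07. HIST1H1T, the testis-specific linker histone, averaged 2.29 in WM266-4 and 2.43 in WM115 and was too dim to be tested.

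The start regions of HIST1H1A and HIST1H1B are shown because these were the called linker histone genes. Sequences are from RefSeq on GRCh38.p14, run 5′ to 3′ on the gene's strand from 250 bases before to 50 after the start, and carry 4 motifs in capitals on either strand. CCAAT is the site known for NF-Y, TATAAA is the TATA box, ATTTGCAT is the octamer bound by POU2F1 and known from H2B promoters, and AAACACA is the H1 box known from H1 promoters. HIST1H1A lies on the minus strand at chr6:26017738-26018037 and HIST1H1B on the minus strand at chr6:27867539-27867838.
HIST1H1A: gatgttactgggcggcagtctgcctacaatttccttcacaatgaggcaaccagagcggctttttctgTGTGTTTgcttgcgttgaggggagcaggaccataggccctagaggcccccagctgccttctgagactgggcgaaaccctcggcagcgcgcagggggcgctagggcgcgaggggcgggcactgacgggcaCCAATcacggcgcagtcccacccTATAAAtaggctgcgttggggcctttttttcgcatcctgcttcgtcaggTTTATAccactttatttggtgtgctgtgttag
HIST1H1B: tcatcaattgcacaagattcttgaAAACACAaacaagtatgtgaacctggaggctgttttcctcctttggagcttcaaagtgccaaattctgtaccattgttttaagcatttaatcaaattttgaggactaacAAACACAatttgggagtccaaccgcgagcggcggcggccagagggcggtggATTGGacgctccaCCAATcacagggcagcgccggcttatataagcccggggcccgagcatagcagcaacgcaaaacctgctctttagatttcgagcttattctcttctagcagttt

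Promoter windows were found for 29 of the 32 members. The H1 box stood in 6 of 6 H1 windows, 0 of 13 H2B windows and 1 of 7 H2A windows, beside 5.64% of all 35116 promoters. The octamer stood in 0 of 6 H1 windows, 9 of 13 H2B windows and 6 of 7 H2A windows, beside 1.77% of all promoters. CCAAT was in 28 of 29 member windows (34.6% of all promoters) and TATAAA in 21 (11.5% of all promoters). Matches on either strand and anywhere in a window were counted, so the 21 are not all read as genes with a TATA box. Both the called and the uncalled H1 genes held the H1 box, so its presence did not separate them.

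Of the H2A genes HIST2H2AB, HIST2H2AC and HIST1H2AB rose, and HIST1H2AC and HIST1H2AH were tested and not called. The risers were 60.0% of only 5 tested, beside 13.6% of all tested genes. HIST2H2AB had 10.33, 10.34 and 10.39 in WM266-4, against 8.97, 9.14 and 8.83 in WM115. Every WM266-4 array stood above every WM115 array, and the pairs gave 1.36, 1.19 and 1.56. The difference of HIST2H2AB was 1.37 ± 0.12 (SE, n = 3 each), 2.59-fold, with a limma adjusted p of 0.00123. HIST2H2AC had 10.76, 10.78 and 10.58 in WM266-4, against 10.05, 10.39 and 9.89 in WM115. Its lines did not overlap, but WM115 repeat 2 came close. The difference of HIST2H2AC was 0.60 ± 0.16 (SE, n = 3 each) with a limma adjusted p of 0.0349, and it missed the threshold on the 2.1 arrays alone (0.54, adjusted p 0.0543) and without WM266-4 repeat 2 or 3 or WM115 repeat 3 (adjusted p up to 0.133).

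HIST1H2AB had 5.40, 5.35 and 5.28 in WM266-4, against 4.77, 5.01 and 4.71 in WM115. That difference of 0.51 ± 0.12 (SE, n = 3 each) had a limma adjusted p of 0.0258 and missed the threshold without WM266-4 repeat 2 or 3 or WM115 repeat 3, with adjusted p up to 0.101. The row of HIST1H2AB named 2 Ensembl genes, so its signal cannot be assigned to 1 of them. HIST1H2AC ran the other way in all pairs, with 6.53, 6.04 and 6.71 in WM266-4 and 6.93, 6.95 and 7.18 in WM115. Its difference of -0.59 ± 0.19 (SE, n = 3 each) had a limma adjusted p of 0.0668, and it passed the threshold with the replicate number as a block (adjusted p 0.0472), without the array version term (adjusted p 0.0392) and on the 2.1 arrays alone (-0.69, adjusted p 0.0419). HIST1H2AH had 4.91, 4.01 and 4.27 in WM266-4, against 4.21, 4.62 and 5.30 in WM115. It lay higher in repeat 1 and lower in the later repeats, and its difference of -0.31 was not called, whereas on the 2.1 arrays alone it was -0.82 (limma adjusted p 0.0242). HIST3H2A, HIST1H2AJ and HIST1H2AA were too dim to be tested, at differences of 0.48, 0.36 and 0.11.

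HIST2H2AB is shown as the H2A gene with the largest difference. Its window is on the minus strand at chr1:149887916-149888215 and holds 4 CCAAT sites, 1 TATAAA and 1 octamer, with the motifs in capitals.
HIST2H2AB: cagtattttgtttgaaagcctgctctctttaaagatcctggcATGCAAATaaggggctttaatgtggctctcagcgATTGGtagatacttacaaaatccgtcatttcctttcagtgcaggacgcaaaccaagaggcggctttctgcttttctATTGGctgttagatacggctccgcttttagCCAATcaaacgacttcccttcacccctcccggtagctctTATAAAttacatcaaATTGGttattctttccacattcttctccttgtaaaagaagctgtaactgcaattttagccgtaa

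The H2B genes split. HIST1H2BM, HIST3H2BB and HIST1H2BB rose, HIST1H2BD fell, and 8 of the 12 tested were not called. The risers were 25% of only 12 tested, beside 13.6% of all tested genes called higher. The gene that fell was 8.33%, beside 13.3% of all tested genes called lower. The median over all 14 was -0.07, below the medians of the H1 genes (0.29) and the H2A genes (0.42), and on the 2.1 arrays alone these were -0.07, 0.19 and 0.28. These differences between types were not tested, and genes of a type are not replicates. HIST1H2BM had 11.23, 11.00 and 10.93 in WM266-4, against 9.72, 10.21 and 9.80 in WM115. The lines were apart on all arrays, and the difference of HIST1H2BM was 1.15 ± 0.17 (SE, n = 3 each), 2.21-fold, with a limma adjusted p of 0.00568.

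HIST3H2BB had 5.43, 5.81 and 6.15 in WM266-4, against 5.003, 4.78 and 4.20 in WM115. All pairs were positive but spread from 0.42 to 1.95. Its difference of 1.13 ± 0.27 (SE, n = 3 each) had a limma adjusted p of 0.0256, missed the threshold with the replicate number as a block (adjusted p 0.0590), and missed it without any 1 of the 4 arrays of repeats 2 and 3 (adjusted p 0.0647 to 0.0942). HIST1H2BB had 6.55, 6.92 and 6.99 in WM266-4, against 6.21, 6.21 and 5.44 in WM115. The lowest value, in WM115 repeat 3, set much of its difference of 0.87 ± 0.25 (SE, n = 3 each, limma adjusted p 0.0452), which was 0.57 without that array. The call on HIST1H2BB was also lost with the replicate number as a block (adjusted p 0.0705), with no filter (0.0565), after quantile normalization (0.0542), under a robust prior (0.0524) and without any 1 array of repeats 2 and 3 (0.0585 to 0.152).

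HIST1H2BD was the only member called lower in the fit of 1 row per gene. It had 4.34, 4.56 and 4.72 in WM266-4, against 5.46, 5.17 and 5.12 in WM115. All WM266-4 arrays lay below all WM115 arrays. The difference of HIST1H2BD was -0.71 ± 0.15 (SE, n = 3 each) with a limma adjusted p of 0.0185, which became 0.0744 without WM266-4 repeat 2 and 0.0560 without WM115 repeat 2. HIST2H2BE also lay lower on every array, with 5.96, 6.58 and 6.80 in WM266-4, against 7.82, 7.03 and 7.12 in WM115. Its difference of -0.88 ± 0.29 (SE, n = 3 each, 95% interval -1.59 to -0.17) had a limma adjusted p of 0.0712 and passed without the array version term (0.0470). On the 2.1 arrays alone it was -0.39. HIST1H2BK had 9.05, 9.54 and 9.61 in WM266-4, against 9.94, 9.39 and 9.43 in WM115, lower in repeat 1 and higher in the later repeats. The remaining H2B genes that were tested and not called, HIST1H2BL, HIST1H2BO, HIST1H2BN, HIST1H2BH, HIST1H2BC and HIST2H2BF, differed by between -0.85 and 0.55.

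HIST1H2BM is shown as the H2B gene with the largest difference. Its window is on the plus strand at chr6:27814772-27815071 and holds 5 CCAAT sites, 1 TATAAA and 1 octamer, in capitals. The TATAAA match reads TTTATA, so it lies on the strand opposite to the gene and is not read as its TATA box.
HIST1H2BM: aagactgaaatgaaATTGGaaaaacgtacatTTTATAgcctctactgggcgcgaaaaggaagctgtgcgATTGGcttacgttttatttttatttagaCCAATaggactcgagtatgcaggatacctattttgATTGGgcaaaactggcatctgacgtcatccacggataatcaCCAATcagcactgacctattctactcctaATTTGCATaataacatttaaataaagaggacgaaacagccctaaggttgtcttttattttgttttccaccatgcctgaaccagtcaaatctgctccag

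No H3 or H4 gene was called, nor did any reach an unadjusted limma p under 0.05 (0 of the 2 tested). The rows of HIST1H3A and HIST1H4A named 10 and 14 Ensembl genes, the near-identical copies that encode the same H3 and H4 proteins. HIST1H3A had 6.38, 5.68 and 5.75 in WM266-4, against 5.12, 5.43 and 6.16 in WM115. The pairs disagreed in sign, and the difference of 0.37 (95% interval -0.39 to 1.13) was not called. HIST1H4A differed by 0.39 (95% interval -0.07 to 0.85), also not called. HIST3H3, a testis H3, and HIST1H4G, an H4-like gene, were too dim to be tested.

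**Figure D2:**
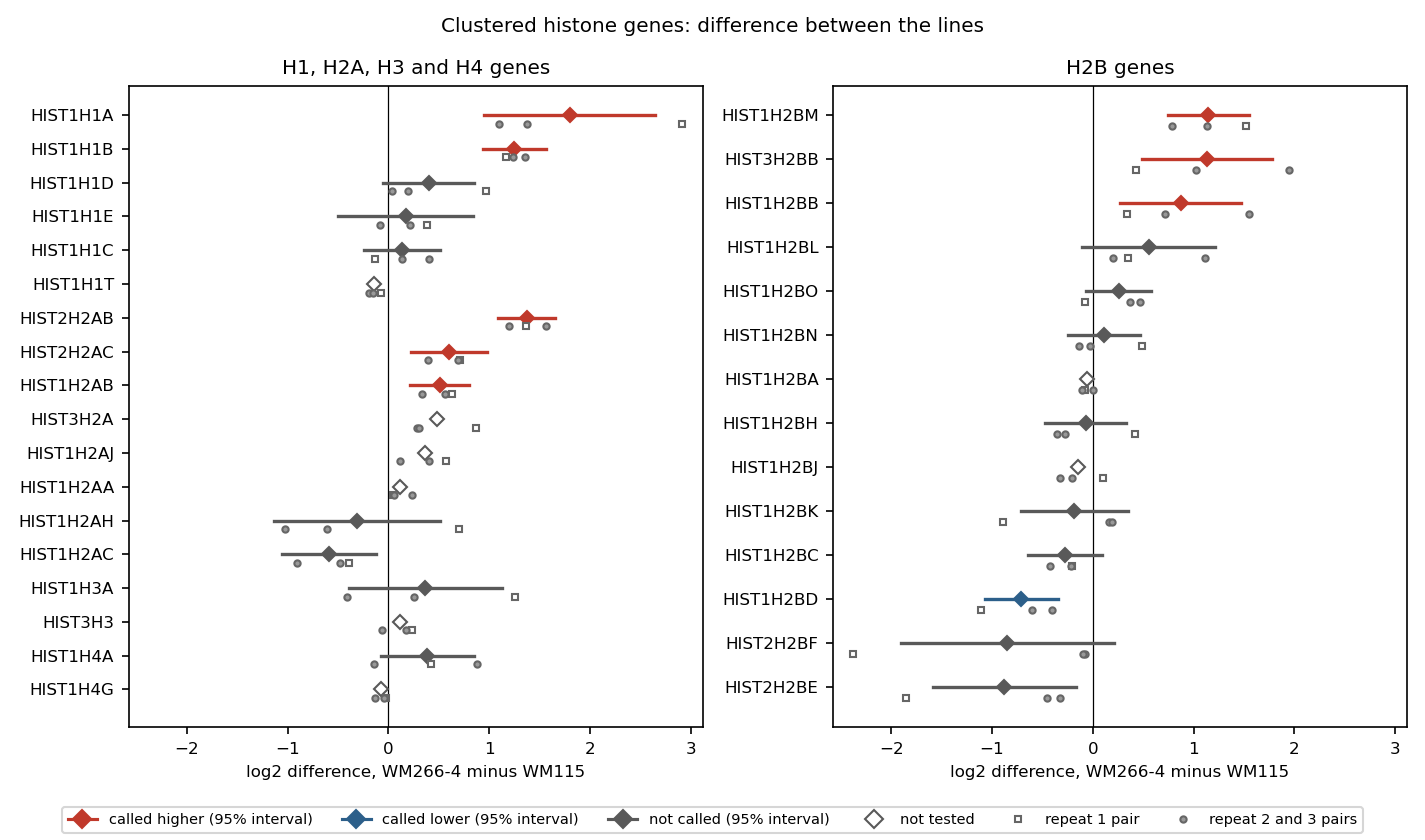
Log2 difference WM266-4 minus WM115 (x axis) for every member, as the fitted value with its 95% interval (diamonds, red for higher, blue for lower, grey for not called, open for not tested) and as the 3 pairs of same-numbered repeats below it (open square for repeat 1, circles for repeats 2 and 3). The intervals of HIST2H2AB, HIST1H1B and HIST1H2BM are narrow and far above 0, while the repeat 1 pair stands apart for HIST1H1A, HIST2H2BE and HIST2H2BF.

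Set out by cluster, 5 of 19 tested HIST1 genes rose (26.3%), 1 fell (5.26%) and 13 were not called. Of the 5 tested genes of HIST2 and HIST3, 3 rose, none fell and 2 were not called, and at an unadjusted limma p under 0.05 there were 3 higher and 1 lower. The background shares were 13.6% higher and 13.3% lower. The median difference was 0.14 over the 25 HIST1 genes, against 0.48 over the 7 others. By pairs of repeats 1, 2 and 3 the HIST1 median was 0.35, 0.12 and 0.06, and that of the other clusters was 0.42, 0.28 and 0.31. The difference between clusters rests on few genes outside HIST1 and was not tested, since genes of a cluster are not replicates of a line. On the 2.1 arrays alone 9 HIST1 genes were called, 6 higher and 3 lower, with 2 called higher in the other clusters, and the medians were 0.11 and 0.29. Counts fell to 3 HIST1 genes without WM266-4 repeat 2, WM266-4 repeat 3 or WM115 repeat 2, and to 1 gene of the other clusters without WM266-4 repeat 2, WM266-4 repeat 3 or WM115 repeat 3. Calls over all genes moved as well, from 3343 to 3914 on the 2.1 arrays alone. Without 1 array of repeats 2 and 3 they fell to between 1400 and 1808.

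Within HIST2 the fitted differences of the H2A and H2B genes had opposite signs. Its H2A genes HIST2H2AB and HIST2H2AC were among the risers. Its H2B genes HIST2H2BE and HIST2H2BF had differences of -0.88 and -0.85 that were not called. On the 1.0 pair these were -1.85 and -2.38, against -0.39 and -0.09 on the 2.1 arrays alone, so their size rests largely on 1 array per line. HIST2H2AC and HIST2H2BE lie head to head, so their windows on opposite strands overlap by 265 bases. Their sequences are shown because neighbours that share most of a start region differed in sign, 0.60 for HIST2H2AC and -0.88 for HIST2H2BE. HIST2H2AC is on the plus strand at chr1:149886668-149886967 and HIST2H2BE on the minus strand at chr1:149886633-149886932, and the capitals mark the same 4 motifs.
HIST2H2AC: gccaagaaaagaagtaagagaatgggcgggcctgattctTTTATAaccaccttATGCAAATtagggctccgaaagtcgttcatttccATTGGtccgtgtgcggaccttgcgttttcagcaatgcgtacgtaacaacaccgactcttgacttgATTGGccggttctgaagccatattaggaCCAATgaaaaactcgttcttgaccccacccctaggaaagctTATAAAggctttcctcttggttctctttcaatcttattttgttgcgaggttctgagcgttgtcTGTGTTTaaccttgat
HIST2H2BE: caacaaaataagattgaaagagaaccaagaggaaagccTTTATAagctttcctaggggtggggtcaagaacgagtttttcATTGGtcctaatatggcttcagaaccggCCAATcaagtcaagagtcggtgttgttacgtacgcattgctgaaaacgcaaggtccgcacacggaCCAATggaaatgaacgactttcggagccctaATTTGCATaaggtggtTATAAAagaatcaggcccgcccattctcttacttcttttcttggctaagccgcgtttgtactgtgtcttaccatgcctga

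Among the 29 members with a promoter window there were 3 more head-to-head pairs, and all 4 were looked up after the values were seen. HIST1H2BC, HIST1H2AH and HIST1H4A had no window, so any pair that holds them was not looked up. HIST1H2BM and HIST1H2AJ shared 256 bases and differed by 1.15 and 0.36. HIST3H2BB and HIST3H2A shared 271 bases and differed by 1.13 and 0.48. HIST1H2AA and HIST1H2BA shared 286 bases and differed by 0.11 and -0.06. Only HIST1H2BM and HIST3H2BB among these 6 genes were bright enough to be tested. In the repeats HIST3H2A had 3.39, 3.07 and 3.14 in WM266-4, against 2.52, 2.79 and 2.83 in WM115, and HIST1H2AJ had 3.68, 3.46 and 3.59 in WM266-4, against 3.10, 3.34 and 3.18 in WM115. For neither gene did the lines overlap, with WM266-4 higher, as was the case for 21.4% of all genes. That reading sets aligned levels of repeat 1 beside those of repeats 2 and 3. By pairs of repeats 1, 2 and 3 HIST3H2A differed by 0.87, 0.28 and 0.31, and HIST1H2AJ by 0.57, 0.12 and 0.40.

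The deposited table lists Ensembl transcripts for each row, and this split was made after the values were seen, so it carries no test. The 22 members with 1 listed transcript had a median difference of 0.31 (0.26 on the 2.1 arrays alone), with 16 above 0. Of the 15 tested in that group 7 rose (46.7%, beside 13.6% of all tested genes). The 6 members of 1 gene with over 1 transcript, HIST2H2BE, HIST2H2BF, HIST1H2BD, HIST1H2AC, HIST1H2BN and HIST1H2BJ, had a median of -0.65, with 1 above 0. On the 2.1 arrays alone that median was -0.33, as HIST2H2BF and HIST2H2BE then differed by -0.09 and -0.39. In 4 of these 6 every WM266-4 array lay below every WM115 array (66.7%, beside 22.8% of all genes). That count sets aligned levels of repeat 1 beside those of repeats 2 and 3. It includes HIST2H2BF, whose pairs of repeats 2 and 3 differed by only -0.07 and -0.10. Of the 5 tested 1, HIST1H2BD, was called lower, beside 13.3% of all tested genes. The 4 members whose rows named several Ensembl genes had a median of 0.38 (0.14 on the 2.1 arrays alone), with HIST1H2AB called higher.

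For 4 of the 24 tested members the difference between the lines changed with array version, as tested by a line-by-version term in limma (5.48% of all tested genes were called by this term). HIST2H2BF differed by -2.38 on the 1.0 pair and by -0.09 on the 2.1 arrays (change 2.29, limma adjusted p 0.00113). HIST2H2BE differed by -1.85 on the 1.0 pair and -0.39 on the 2.1 arrays (change 1.46, limma adjusted p 0.0109). HIST1H1A differed by 2.92 and 1.24 (change -1.68, limma adjusted p 0.0260), and HIST1H2BK by -0.89 and 0.17 (change 1.06, limma adjusted p 0.0270), each on the 1.0 pair first. The 1.0 value is 1 array per line, and array version, RNA kit and repeat cannot be told apart here.

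HIST1H2AH, HIST1H2BC and HIST2H2BF had several rows each, and in them the repeat 1 difference was the same to within 0.0108 log2 while the later repeats differed between rows by up to 1.84. The same held across the table, where the repeat 1 differences of all 600 symbols with several rows agreed within 0.05 log2, against 75 symbols (12.5%) for the later repeats. Only the levels in repeat 1 differed between rows, and they moved with the row's mean. The rows of HIST1H2AH stood at 4.91, 4.41 and 4.01 in WM266-4 repeat 1, with row means of 4.55, 4.06 and 3.67. A repeat 1 difference is therefore not read as a separate measurement of each row, although the fits of single rows count it within n = 3. Fitted on its own, a second, dimmer row of HIST2H2BF had pairs of -2.38, -1.34 and -1.29 and was called lower (-1.67 ± 0.22, SE, n = 3 each, limma adjusted p 0.00424), whereas its brightest row had pairs of -2.38, -0.07 and -0.10 and was not. A second row of HIST1H2BC was called lower (-0.50, limma adjusted p 0.0313), and the remaining rows of that symbol, too dim to be tested, differed by 0.51 and 0.73. HIST1H2AH differed by -0.31, 0.14 and 0.12 over its rows. In this fit of single rows 26.2% of 13221 rows were called.

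**Figure D3:**
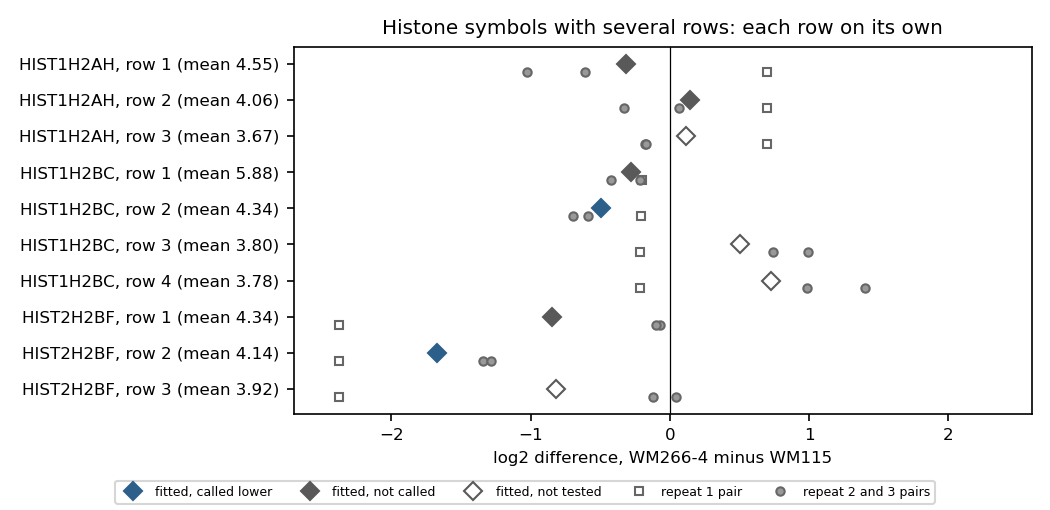
Log2 difference WM266-4 minus WM115 (x axis) for each row of the 3 histone symbols that had several, ordered by mean signal within a symbol, as fitted value (diamonds, blue for called lower, grey for not called, open for not tested) and pairs of repeats (open square for repeat 1, circles for repeats 2 and 3). The open squares line up within a symbol while the circles move from row to row.

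In RefSeq 24 of the 25 HIST1 members could be placed in order along chromosome 6, HIST1H2BC being left out because its name matched several entries. They fell into 3 blocks parted by more than 20 other RefSeq genes. HIST1H3A, HIST1H4A and HIST1H2AB were placed in the first block by symbol, although their rows named 10, 14 and 2 Ensembl genes. The signal of these rows cannot be assigned to 1 gene. The first block, of 15 members, had 3 risers, HIST1H1A, HIST1H2AB and HIST1H2BB, and the lower HIST1H2BD, with a median of 0.14 (0.07 on the 2.1 arrays alone). That was 27.3% higher and 9.09% lower of its 11 tested, beside 13.6% and 13.3% of all tested genes. The second, HIST1H2BJ, HIST1H2BK and HIST1H2AH, had none called (0 also at an unadjusted limma p under 0.05) and a median of -0.18 (-0.27 on the 2.1 arrays alone). The third block, of 6 members, held the risers HIST1H2BM and HIST1H1B (40.0% of its 5 tested) and had a median of 0.46, with all 6 above 0. The non-histone genes that lie among the HIST1 members gave other values. Of these 18 genes 11 were tested, 7 fell (63.6%, beside 13.3% of all tested genes) and 4 were not called. The median over all 18 was -0.43, and -0.29 on the 2.1 arrays alone. No gene among these 18 rose by limma, and at an unadjusted p under 0.05 there were 0 higher and 9 lower. ZNF322 fell by 1.44 (limma adjusted p 0.00417), TRIM38, a ubiquitin ligase, by 1.33 (limma adjusted p 0.000755) and BTN2A1, a butyrophilin, by 0.71 (limma adjusted p 0.0311). A test of histone against non-histone genes of the region was not made.

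**Figure D4:**
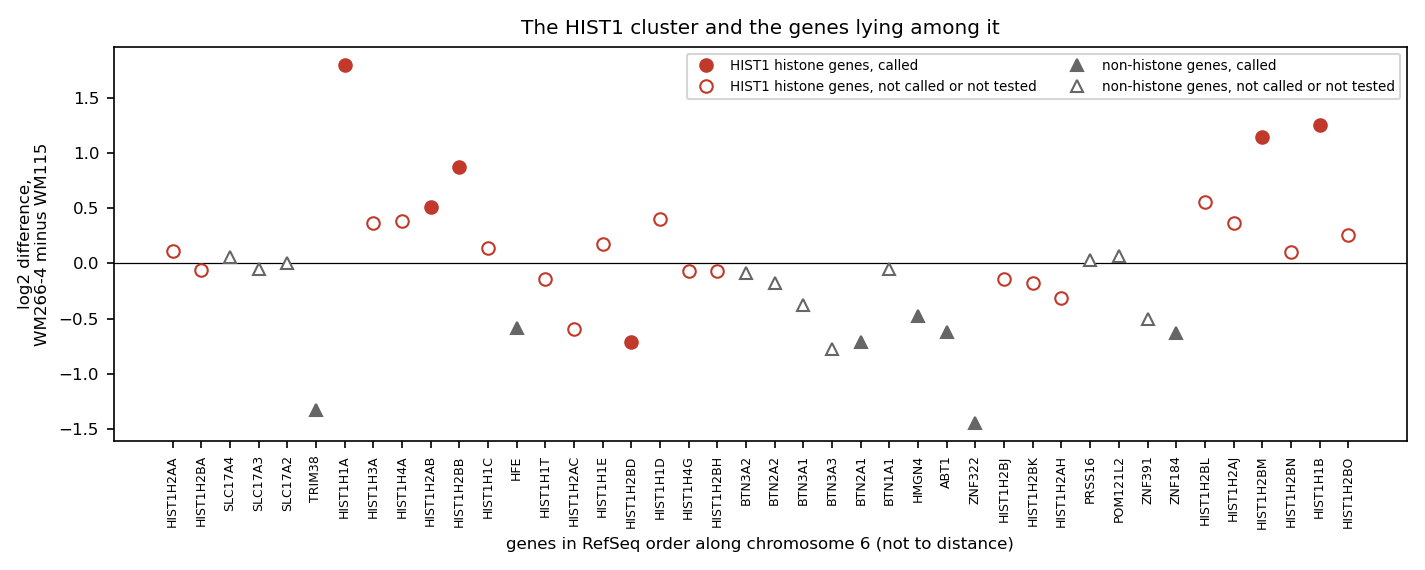
Log2 difference WM266-4 minus WM115 (y axis) for the 24 placed HIST1 genes (red circles) and the 18 other genes among them (grey triangles), in RefSeq order along chromosome 6 and not to distance, filled where called. The filled triangles all lie below 0, and the filled circles above 0 except HIST1H2BD.

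Genes of the pathways around histone supply were read from lists that were chosen with earlier results of these data known, and over all tested genes 13.6% were called higher and 13.3% lower. Of 28 S phase genes 19 rose and none fell, and at an unadjusted limma p under 0.05 there were 24 higher and 0 lower. PRIM1, a primase subunit, was 1.30 higher, GINS2, part of the replicative helicase, 1.01 and E2F8, an E2F family factor, 1.01. PCNA, the sliding clamp, averaged 9.12 in WM266-4 and 8.76 in WM115 and was not called (0.35, limma adjusted p 0.0842). Of 18 genes of G2 and mitosis 12 rose and none fell, and at an unadjusted p under 0.05 there were 15 higher and 1 lower. MKI67, the proliferation marker, averaged 9.17 ± 0.13 in WM266-4 and 7.85 ± 0.22 in WM115 (SD, n = 3 each), CDK1 was 1.27 higher and AURKB 0.79 higher. The medians were 0.57 for S phase and 0.50 for G2 and mitosis, against 0.01 over all tested genes.

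Genes of the machinery that makes and degrades histone mRNA went both ways. Of 34 tested 3 rose (8.82%), 2 fell (5.88%) and 29 were not called, and at an unadjusted limma p under 0.05 there were 7 higher and 6 lower. Differences ran from -1.42 to 1.08 with a median of -0.02. CDK2, which with cyclin E activates NPAT, averaged 8.40 ± 0.35 in WM266-4 and 7.32 ± 0.37 in WM115 (SD, n = 3 each) and was 1.08 higher (limma adjusted p 0.0239, or 0.0572 with the replicate number as a block), and 0.71 higher on the 2.1 arrays alone. CCNE2, a cyclin E, was 0.67 higher (limma adjusted p 0.00514). CPSF3, the nuclease that cuts histone pre-mRNA, was 0.42 higher (limma adjusted p 0.0449, or 0.0806 with the block). ZCCHC6, a uridyl transferase also known as TUT7, fell to 6.39 in WM266-4, against 7.81 in WM115. NCBP1, of the cap-binding complex, was lower by -0.42 (limma adjusted p 0.0432, or 0.0819 with the block). SLBP averaged 8.24 in WM266-4 and 8.04 in WM115 (0.20, 95% interval -0.04 to 0.44, and 0.13 on the 2.1 arrays alone) and NPAT averaged 8.51 in WM266-4 and 8.15 in WM115 (0.36, 95% interval 0.08 to 0.64), neither called.

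Histone genes outside the clusters mostly encode variants made independently of replication. Of 13 tested, 1 rose (7.69%, beside 13.6% of all tested genes) and none fell, with the same counts at an unadjusted p under 0.05. The median over 17 was 0.00. The riser was CENPA, the centromeric H3 variant, at 7.36 ± 0.14 in WM266-4 and 6.52 ± 0.04 in WM115 (SD, n = 3 each). H2AFZ differed by 0.12, H2AFX by 0.03 and H1F0 by 0.05. Among 28 histone chaperones and carriers 6 rose (21.4%, beside 13.6% of all tested genes) and 2 fell (7.14%, beside 13.3%), with a median of 0.17. This list and the S phase list share a riser. Those that rose most were ASF1B (0.80) and the chromatin assembly factor subunits CHAF1B (0.74) and CHAF1A (0.64), which hand new histones to replicated DNA. TNPO1, an import receptor, and UBN1, of the HIRA complex that deposits replication-independent H3, fell by 0.85 and 0.77. Of 8 cell cycle inhibitors 6 were tested: CDKN1A, BTG2 and CDKN1B fell by 0.99, 0.77 and 0.42, and RB1 was 1.01 higher. The call on CDKN1B was lost with the replicate number as a block (adjusted p 0.0531) and without any 1 array (0.0625 to 0.115).

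**Figure D5:**
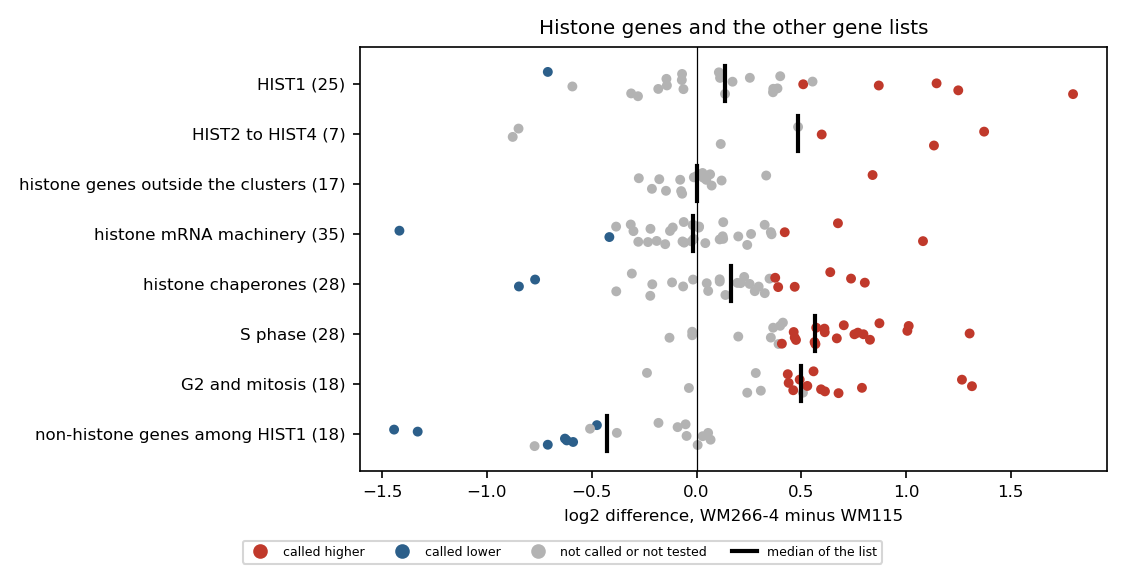
Log2 difference WM266-4 minus WM115 (x axis) of each gene in the histone clusters, the other lists and the non-histone genes among HIST1 (numbers of genes in brackets), red for called higher, blue for called lower and grey for the rest, with the median of each list as a black bar. The S phase genes lie mostly between 0.4 and 1.0, while the clustered histone genes spread from -0.88 to 1.80 on both sides of 0.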

How the data were processed

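Affymetrix Expression Console and RMA are named in the submitters' processing notes. The authors deposited a gene-named table of log2 values for all 6 arrays, with 18887 rows. A step that equalised array version means must have come before deposit, since a gene's version means differ by a median of 0.00307 log2. Its method is not stated in the labels or file headers used here. The value tables per array version carry no gene names and were not used. No detection or background signals were used, so a low level is not read as absence, and the number of arrays limits the precision.

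From the deposited log2 values, the brightest of rows repeating a symbol was kept (1121 rows dropped). Genes under the 30th percentile of the mean (3.97) were not tested, which left 12436. limma 3.58.1 in R 4.3.3 (lmFit, eBayes, constant prior) fitted line plus array version, with Benjamini-Hochberg adjustment over all genes tested and calls at 0.05. Intervals are 95%. No arrays of a line were identical.

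The members, the gene lists and the tests were chosen with earlier results of these data known. Every member could be named. Values on each array are given for the 8 called members of each direction with the largest difference, for the 4 with the highest mean signal (only a rule of choice, since probes differ) and for called HIST2 to HIST4 genes, and for others whose direction or rows are described, which were picked after their values were seen. From each list the 3 called genes of each direction with the largest difference are named, with SLBP, NPAT, MKI67 and PCNA, and a few uncalled markers and variants picked after their values were seen. Counts per list cover only genes with a row. LSM11, PECAM1, H2AFB2, H2AFB3 and H2BFS were not analysed here. Alternatives were no version term, a replicate block, 2.1 arrays alone, other filters, quantile normalization, mean rows, a robust prior and each array left out. Single rows, the line-by-version term and group medians on the 2.1 arrays alone were added after seeing the data.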

Additional observations from a re-analysis of the deposited data

Results flagged for a closer look

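The difference between the lines changed between array versions for 4 histone members, by a line-by-version term in limma that was chosen after seeing the data. The change, 2.1 arrays minus 1.0 arrays, was -1.68 log2 for HIST1H1A, 1.06 for HIST1H2BK, 1.46 for HIST2H2BE and 2.29 for HIST2H2BF. HIST1H1A kept its direction on both versions, as did HIST2H2BE and HIST2H2BF, while HIST1H2BK was lower in WM266-4 on the 1.0 pair and higher on the 2.1 arrays. The 1.0 arrays hold 1 array of each line. Groups of 3 were not searched for outlying samples.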

How the results depend on the processing

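Over all genes 3343 were called, with 1400 to 3914 when 1 array was left out and 2398 with the replicate block. HIST1 had 6 called genes, with 3 to 9 when 1 array was left out, 4 with the filter at the median and 6 with the replicate block (4 higher, 2 lower). The other clusters had 3, with 1 to 2 when 1 array was left out and 2 with the replicate block. The median of HIST1 genes was 0.11 to 0.18 with 1 array left out. That of the other clusters was 0.29 to 0.56, the lowest on the 2.1 arrays alone (0.29). Leaving out a repeat 1 array gives the same differences as the 2.1 arrays alone, since its partner then carries no information on the lines. HIST1H1B, HIST1H2BM and HIST2H2AB were called under all 14 alternatives, at 1.15 to 1.33, 0.96 to 1.32 and 1.28 to 1.46.

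No called member changed direction. On the 2.1 arrays alone HIST1H3A turned to -0.0797, HIST1H2BN to -0.0833 and HIST1H2BK to 0.17, and HIST1H2BO (0.42, adjusted p 0.0339) and HIST1H2AH (-0.82, adjusted p 0.0242) became called. With 1 array left out, HIST1H3A ranged from -0.0797 to 0.704, HIST1H2BN from -0.0833 to 0.213, HIST1H2BK from -0.304 to 0.172, HIST1H1E from -0.0621 (without WM115 repeat 2) to 0.466, HIST1H1C from -0.0221 (without WM115 repeat 3) to 0.268, HIST1H2AH from -0.818 to 0.0267 (without WM115 repeat 3) and HIST1H2BH from -0.315 to 0.0327 (without WM115 repeat 2). None of these 7 was called by the fit to all arrays. HIST1H2BC turned to 0.11 with the mean of its rows, and HIST1H2AH to 0.14 in its second row. The cause was not tested. Among the named genes of the lists, calls with 1 array left out were lost for CDK2 (adjusted p 0.0847 and 0.0811 without WM266-4 repeat 2 and WM115 repeat 2), ASF1B (0.0595 and 0.0554 without WM266-4 repeat 3 and WM115 repeat 2), TNPO1 (0.0521 to 0.0535 without WM266-4 repeat 2 or 3 or WM115 repeat 3), CPSF3 (0.0700 to 0.152 without any array of repeats 2 and 3), and NCBP1 (0.0900 to 0.109 without any array). HIST1H2BD was not tested with the filter at the median. The replicate numbers were not taken to pair the samples. Same-numbered deviations over genes correlated at -0.998, -0.26 and -0.40 for repeats 1, 2 and 3. Those of repeat 2 in 1 line with repeat 3 in the other correlated at -0.47 and -0.51. Equal version means fix the first value and pull the others towards negative ones, so these values cannot tell whether the samples were paired.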
